A study of Mus musculus with 11 samples.

Results

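The plasminogen activator system was followed through 6 genes chosen by name: Plau, Plat, Plaur, Serpine2, Serpinb2 and F3. A gene was taken where a probe set carried exactly its symbol in the platform annotation. This gave 6 probe sets for 5 of the 6 genes, out of 12393 genes measured in all. Serpine2, which encodes protease nexin 1, had no probe set under its own symbol and was not analysed here. RNA was hybridised to Affymetrix arrays from mouse JB6 cells, a line derived from epidermis that is used to study the step to growth without anchorage. The parental clone 41-5A, given basic fibroblast growth factor (bFGF), was sampled as an attached monolayer (3 arrays, bFGF-JB6 monolayer) and as colonies in soft agar (3 arrays, bFGF-JB6 colonies). RT101, the tumor variant of the line, was left untreated and sampled as a monolayer (2 arrays) and as colonies (3 arrays). Colonies of both lines were harvested on day 7, and all cells grew in medium with 4% serum. The bFGF dose was 10 ng/ml for the cells seeded over agar, while the labels give neither dose nor time for the bFGF monolayers. In the bFGF-JB6 colony changes, growth state therefore cannot be told apart from a possible difference in bFGF dose or time. RT101 is 1 line and was untreated, so a difference from the parental clone is a difference between these 2 lines and their treatments. Line and bFGF treatment cannot be told apart, and a difference between the lines, as named below, carries both.

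Plasmin, the protease that dissolves fibrin and cleaves many matrix proteins, is made from plasminogen by urokinase (Plau) or by tissue plasminogen activator (Plat). Urokinase acts mainly while bound to its receptor (Plaur), which is anchored in the cell membrane by a lipid tail. Serpinb2, plasminogen activator inhibitor 2, inhibits urokinase and is found in keratinocytes and macrophages. F3 encodes tissue factor, the membrane receptor for factor VII that starts the clotting cascade, and so stands on the side that lays down fibrin.

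Signals are given as log2 values made by robust multi-array average (RMA), so a difference of 1 is 2-fold. RMA gives no detection call. The lower quartile of all probe sets lay between 3.78 and 3.91 on the 11 arrays, and at or below this level little room is left for a fall, so that folds reaching into it come out too small. Over 22626 probe sets the correlation was 0.989 to 0.998 within groups and 0.9345 to 0.9828 between them. The 3' signal of the Gapdh control exceeded the 5' signal by 0.19 on bFGF-JB6 monolayer replicate 1 and by 0.35 on bFGF-JB6 colonies replicate 3, against -0.08 to -0.01 on the other 9 arrays. Of 11 measured keratinocyte markers, 7 were at or below the lower quartile in 3 of the groups and 6 in bFGF-JB6 colonies, among them Krt14, Trp63, Cdh1 and Epcam. The others were above it, with group means of 4.98 to 5.18 for Krt5, 4.39 to 4.59 for Sfn, and 6.81 and 7.35 in bFGF-JB6 monolayers and colonies for Krt10, which rose in those colonies (log2 change 0.54, limma adjusted p = 0.00528). Of 10 fibroblast markers 8 were above the lower quartile, among them Col1a2 (10.89 to 11.30) and Vim (12.87 to 13.16), while Lum and Thy1 were at or below it in all 4 groups and Dcn stood at 4.51 in RT101 monolayers against 10.63 in bFGF-JB6 monolayers. Most defining keratinocyte markers were thus near the bottom in cells labelled as epidermal. The labels do not say that replicate arrays are separate cultures. A p-value here therefore reflects only the scatter among these particular arrays, part of which may be technical. In RNA from whole cultures, fewer cells that express a gene and less RNA per cell cannot be told apart.

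The colony changes of F3, Plaur and Serpinb2 differed between the lines, and the 250 bases before their transcription starts are shown because all 3 hold the letters TGANTCA. These letters include the binding motif of AP-1, a transcription factor studied in JB6 cells for its part in anchorage-independent growth. They allow any base in the middle and are wider than that motif, so a match to them need not hold it. Capitals mark the matches. The sequences come from RefSeq, build GRCm38.p6, plus strand, at chr3:121723287-121723536 for F3, chr7:24462233-24462482 for Plaur and chr1:107511173-107511422 for Serpinb2, the first of 2 starts listed for that gene.
F3: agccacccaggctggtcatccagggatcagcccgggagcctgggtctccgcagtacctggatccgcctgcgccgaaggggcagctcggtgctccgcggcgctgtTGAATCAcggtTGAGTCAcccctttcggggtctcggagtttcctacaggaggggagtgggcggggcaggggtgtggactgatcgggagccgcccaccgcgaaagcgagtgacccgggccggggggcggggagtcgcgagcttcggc
Plaur: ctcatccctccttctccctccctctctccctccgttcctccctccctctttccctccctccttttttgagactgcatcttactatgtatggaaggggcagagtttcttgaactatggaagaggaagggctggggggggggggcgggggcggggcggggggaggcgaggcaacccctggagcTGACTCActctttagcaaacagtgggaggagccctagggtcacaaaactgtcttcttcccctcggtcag
Serpinb2: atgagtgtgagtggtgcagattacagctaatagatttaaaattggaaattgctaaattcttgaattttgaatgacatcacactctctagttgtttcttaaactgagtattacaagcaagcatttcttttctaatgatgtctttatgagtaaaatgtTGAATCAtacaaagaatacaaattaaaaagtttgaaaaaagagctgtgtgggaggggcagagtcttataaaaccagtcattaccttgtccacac
The F3 window held TGAATCA beginning 146 bases and TGAGTCA beginning 135 bases before the start. In Plaur the match was TGACTCA at 69 bases, and in Serpinb2 it was TGAATCA at 94 bases. TGANTCA reads the same on both strands, and 6.75% of 32851 RefSeq windows of 250 bases held it. The 3 windows are shown because they hold these letters, so this share is a description and no test of enrichment. The letters GGGCGG, searched on both strands, occurred 3 times in F3, 3 times in Plaur and not in Serpinb2, against 32.7% of windows with at least 1. TATAAA, also searched on both strands, was found only in Serpinb2 among these 3, beginning 29 bases before the start, and in 12.4% of all windows. The TGANTCA matches overlapped none of the other matches, and 2 of the GGGCGG matches in Plaur, beginning 105 and 100 bases before the start, shared 1 base. A match is a run of letters and not a measured binding site. Of the other members, Serpine2 had a window in the table, with 0 matches to TGANTCA. Plau and Plat were not among the entries used here.

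F3 was the member that rose in bFGF-JB6 colonies. Its signals were 4.56, 4.65 and 4.60 on the bFGF-JB6 monolayer arrays and 7.49, 7.33 and 7.41 on the colony arrays. They were 7.89 and 8.16 on the RT101 monolayers and 7.53, 7.59 and 7.62 on the RT101 colonies. Thus the parental monolayers stood alone at a low signal, and the other 3 groups lay close together far above it. The mean was 4.60 ± 0.05 in bFGF-JB6 monolayers and 7.41 ± 0.08 in their colonies (SD, n = 3 each). F3 thus rose 6.99-fold, by 2.81 on the log2 scale (SE 0.09, limma adjusted p = 6.97e-11). In RT101 the mean was 8.02 ± 0.19 in monolayers (SD, n = 2) and 7.58 ± 0.04 in colonies (SD, n = 3), a fall of 1.36-fold (log2 change -0.44, SE 0.10, limma adjusted p = 0.00302). All 3 RT101 colony arrays lay below both RT101 monolayer arrays. This small fall missed the threshold without RT101 monolayer replicate 2 (log2 change -0.31, limma adjusted p = 0.0645).

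Among monolayers the F3 signal was 10.7-fold higher in RT101 than in bFGF-JB6 cells (log2 difference 3.42, SE 0.10, limma adjusted p = 7.21e-12). Among colonies the difference was 0.17 (95% interval -0.02 to 0.36, limma adjusted p = 0.137), although the RT101 arrays all lay above the bFGF-JB6 arrays. The colony changes of the lines differed by -3.25 (RT101 minus bFGF-JB6, SE 0.13, limma adjusted p = 1.85e-09). From high to low the order was RT101 monolayer, RT101 colonies, bFGF-JB6 colonies and bFGF-JB6 monolayer, with the middle pair not called different.

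**Figure D1:**
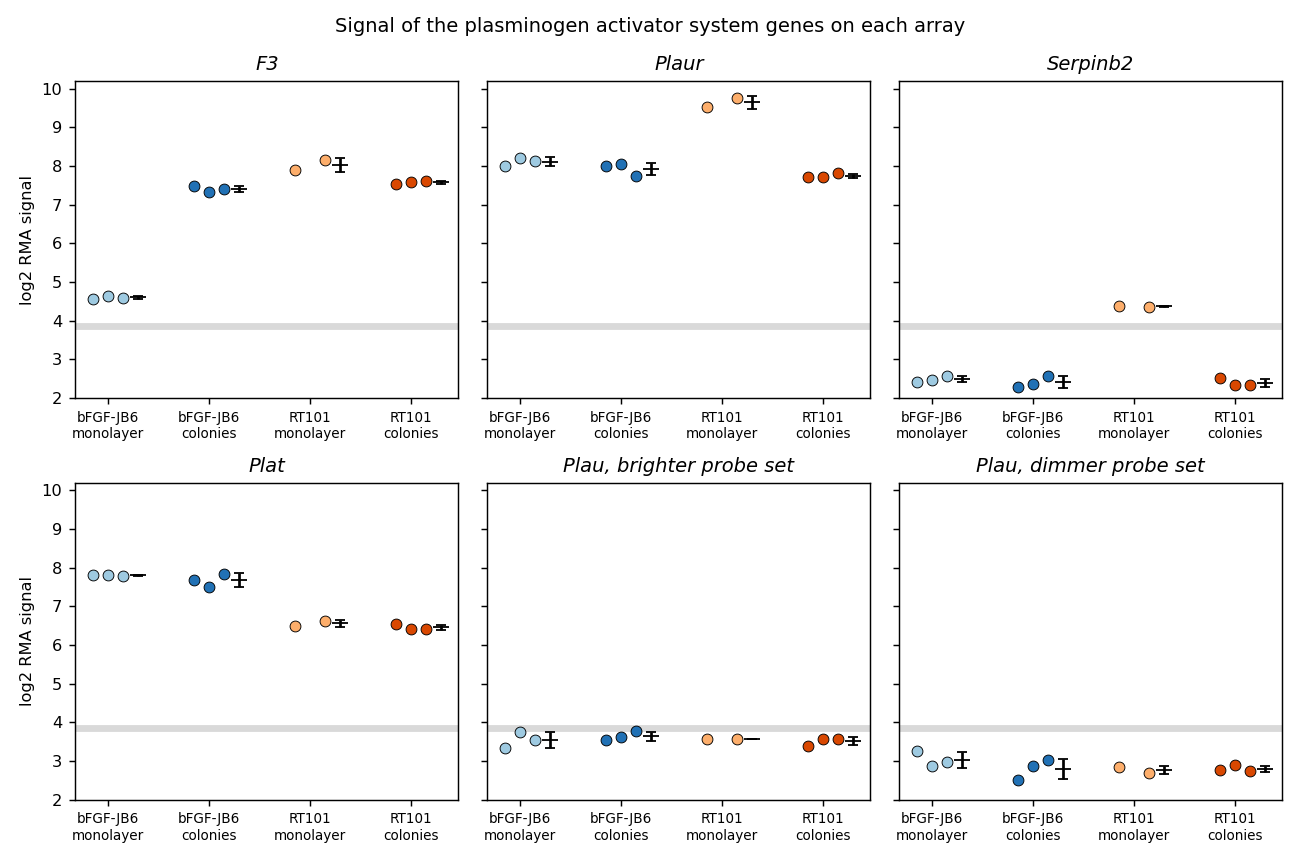
Log2 RMA signal (vertical axis) of each probe set on each of the 11 arrays, by group; points are arrays, the bar beside them is the mean with 1 SD, and the grey band is the range of the arrays' lower quartiles. F3 is lowest in the bFGF-JB6 monolayers (4.56 to 4.65), and Plaur and Serpinb2 are highest in the RT101 monolayers. Serpinb2 lies above the band there only, while Plaur lies above it in all groups. Plat separates the lines, and both Plau probe sets lie at or below the band.

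Plaur, the urokinase receptor gene, had its highest signals in RT101 monolayers, at 9.53 and 9.77. Its signals were 8.00, 8.22 and 8.13 in bFGF-JB6 monolayers, 7.99, 8.05 and 7.75 in bFGF-JB6 colonies and 7.72, 7.72 and 7.81 in RT101 colonies. Both RT101 monolayers lay above every other array, and the bFGF-JB6 monolayers and colonies overlapped. The mean in RT101 was 9.65 ± 0.17 in monolayers (SD, n = 2) and 7.75 ± 0.05 in colonies (SD, n = 3), so that Plaur fell 3.73-fold (log2 change -1.90, SE 0.11, limma adjusted p = 3.39e-08). In bFGF-JB6 colonies the change was -0.19 (95% interval -0.41 to 0.03, limma adjusted p = 0.195), and the difference between the lines' changes was -1.71 (SE 0.15, limma adjusted p = 1.92e-06). The receptor signal was 2.90-fold higher in RT101 than in bFGF-JB6 monolayers (log2 difference 1.53, SE 0.11, limma adjusted p = 1.01e-07).

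In colonies the line difference of Plaur was -0.18 (95% interval -0.40 to 0.04, limma adjusted p = 0.197). It passed when bFGF-JB6 colonies replicate 3, the array with the highest Gapdh 3' signal and the lowest Plaur signal of its group, was left out (log2 difference -0.27, limma adjusted p = 0.042). The order of means was RT101 monolayer, bFGF-JB6 monolayer, bFGF-JB6 colonies and RT101 colonies, and neither step between neighbours among the last 3 was called.

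Serpinb2, the urokinase inhibitor gene, was seen above the lower quartile in RT101 monolayers only. There it measured 4.38 and 4.36, against 2.42, 2.47 and 2.57 in bFGF-JB6 monolayers, 2.29, 2.36 and 2.58 in bFGF-JB6 colonies and 2.51, 2.33 and 2.35 in RT101 colonies. The 9 arrays of the other groups overlapped and lay near the bottom of the scale. The mean was 4.37 ± 0.02 in RT101 monolayers (SD, n = 2) and 2.40 ± 0.10 in RT101 colonies (SD, n = 3), a fall (log2 change -1.97, SE 0.10, limma adjusted p = 1.02e-08). On the RMA scale this is 3.92-fold, and since the colonies lay near the bottom the true fold may be larger. In bFGF-JB6 colonies the change was -0.08 (95% interval -0.28 to 0.12, limma adjusted p = 0.594), from a level that left little room for a fall. RT101 exceeded bFGF-JB6 in monolayers by 1.88 (SE 0.10, limma adjusted p = 5.92e-09) and differed by -0.01 in colonies (95% interval -0.21 to 0.19, limma adjusted p = 0.949). The lines' colony changes differed by -1.89 (SE 0.14, limma adjusted p = 3.57e-07), which largely restates the difference between the monolayers.

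Plat, the tissue plasminogen activator gene, separated the lines in both growth states. It measured 7.82, 7.81 and 7.80 in bFGF-JB6 monolayers and 7.68, 7.49 and 7.85 in bFGF-JB6 colonies. In RT101 it measured 6.50 and 6.63 in monolayers and 6.54, 6.42 and 6.41 in colonies. Every RT101 array lay below every bFGF-JB6 array, while monolayers and colonies of a line overlapped. RT101 was lower by 1.25 on the log2 scale in monolayers (2.37-fold, SE 0.11, limma adjusted p = 3.80e-07) and by 1.21 in colonies (2.32-fold, SE 0.10, limma adjusted p = 1.71e-07). The colony change was -0.14 in bFGF-JB6 (95% interval -0.34 to 0.07, limma adjusted p = 0.328) and -0.10 in RT101 (95% interval -0.33 to 0.13, limma adjusted p = 0.539), so a change as large as 2-fold lay outside both intervals.

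Plau, the urokinase gene, lay near the bottom of the scale on every array. Its brighter probe set ranged from 3.33 to 3.76 in bFGF-JB6 monolayers, 3.54 to 3.77 in bFGF-JB6 colonies and 3.39 to 3.58 in RT101 colonies, and read 3.58 on both RT101 monolayers. Its dimmer probe set ranged from 2.51 to 3.25 over all arrays. The colony change on the brighter set was 0.10 in bFGF-JB6 (95% interval -0.14 to 0.33, limma adjusted p = 0.577) and -0.07 in RT101 (95% interval -0.34 to 0.19, limma adjusted p = 0.733). On the dimmer set it was -0.22 (limma adjusted p = 0.27) and 0.04 (limma adjusted p = 0.898), over all probe sets. The sets differed in sign, and neither was called in any of the 5 comparisons. At signals this near the bottom a change in urokinase RNA may not have been detectable.

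Counted together, 1 of the 5 measured members was called in bFGF-JB6 colonies (F3, higher), where 29.4% of all genes were called, 14.1% higher and 15.3% lower. In RT101 colonies 3 of 5 were called, all lower, where 32.4% of all genes were called, 17% higher and 15.4% lower. The difference between the lines' changes was called for 3 of 5, all lower, against 27.7% of genes, 15% higher and 12.7% lower. In monolayers 4 of 5 differed between the lines, with F3, Plaur and Serpinb2 higher and Plat lower in RT101, against 44.4% of genes, 23.2% higher and 21.2% lower. In colonies 1 of 5 differed, Plat, which was lower, against 43.3% of genes, 22.7% higher and 20.7% lower. The median change of the 5 was -0.08 in bFGF-JB6 colonies and -0.44 in RT101 colonies, where the medians of all genes were 0.03 and -0.01. With 5 genes, chosen with earlier results of these data known, these counts are a description, and the comparisons share arrays. For F3, Plaur and Serpinb2 the line differences were 3.42, 1.53 and 1.88 in monolayers and 0.17, -0.18 and -0.01 in colonies.

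**Figure D2:**
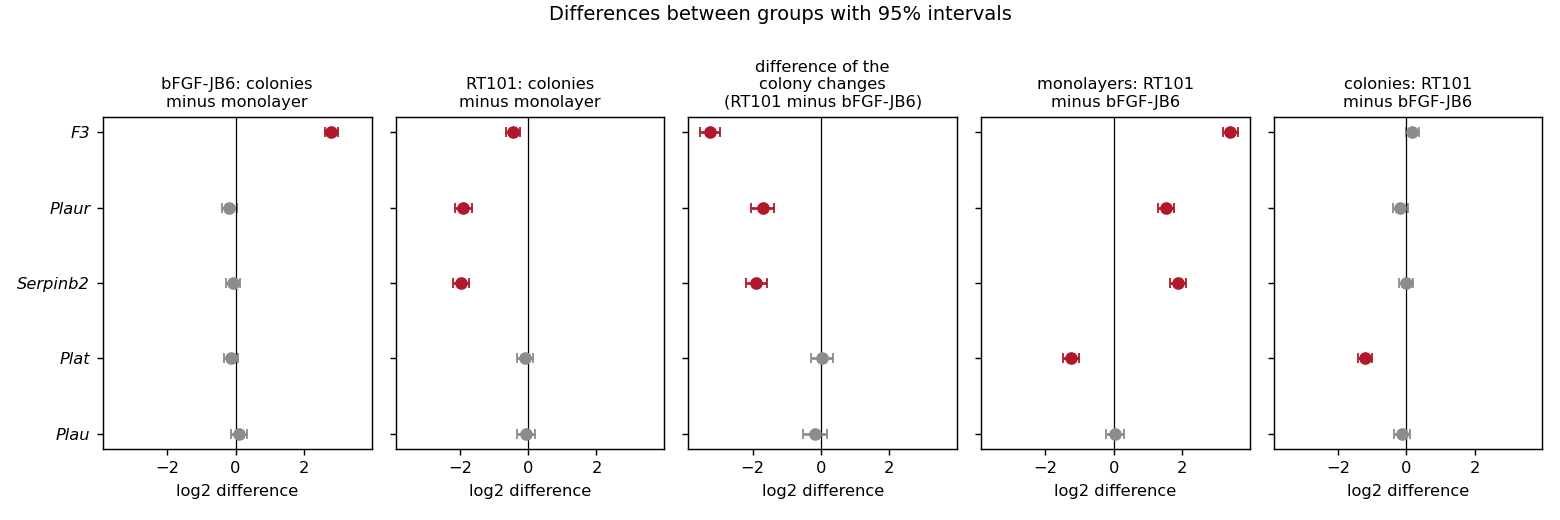
Log2 difference (horizontal axis) with its 95% interval for each of the 5 measured genes in the 5 comparisons; red points passed an adjusted p of 0.05 and grey points did not. F3, Plaur and Serpinb2 lie to the right of 0 between monolayers and near 0 between colonies, while Plat lies at -1.25 and -1.21.

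Markers of macrophages, cells that also make tissue factor, the urokinase receptor and Serpinb2, are given beside these results. Their summed linear signal was 607 to 621 in bFGF-JB6 monolayers, 839 to 904 in bFGF-JB6 colonies, 293 to 295 in RT101 monolayers and 336 to 365 in RT101 colonies. In bFGF-JB6 colonies 3 of 10 rose and none fell, a share near the 29.4% of all genes called. Among them Cd68 had a log2 change of 1.86, and Csf1r one of 0.92 on its brightest probe set, while its 2 other sets were at 0.26 and 0.19 and not called. RT101 monolayers had the lowest sum, but single markers went both ways. Against bFGF-JB6 monolayers, 3 of the 10 were lower and 2 higher (50%, against 44.4% of all genes). Cd68 (-2.71), Cd14 (-1.39) and Fcgr3 (-0.35) were lower in RT101, and Lyz2 (0.85) and Tyrobp (0.35) were higher. The leukocyte gene Ptprc stood at 2.34 to 2.53 in all groups, and Adgre1 and Itgam were also at or below the lower quartile in all 4. Endothelial markers summed to 556 to 618 and 624 to 756 in bFGF-JB6 monolayers and colonies and to 416 to 441 and 546 to 557 in those of RT101, with Pecam1, Cdh5, Tek, Tie1 and Emcn at or below the lower quartile in every group. Melanocyte markers summed to 240 to 249, 262 to 333, 187 to 193 and 173 to 178 in the same order, with Tyr, Dct and Tyrp1 at or below it throughout. Fibroblast markers summed to 18700 to 19600, 20400 to 22600, 12600 to 13400 and 20700 to 21500, and keratinocyte markers to 248 to 262, 305 to 329, 179 to 191 and 176 to 193. The part of these other cell types in the results was not tested.

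The genes whose signals followed each member most closely over the 11 arrays were taken from 4135 genes with a range of at least 1 on the log2 scale. For Serpinb2 they were Car6, a secreted carbonic anhydrase gene (r = 0.996), Psph, a gene of serine synthesis (0.992), and Calcb, a calcitonin gene-related peptide gene (0.992), each highest in RT101 monolayers. For Plaur they were Tbpl1 (r = 0.984), Wdr75 (0.983) and Phf10 (0.982). For F3 they were Plagl1 (0.982), Cachd1 (0.982) and Dipk2a (0.981), each lowest in bFGF-JB6 monolayers. For Plat they were the transcription factor gene Tfap2a, the thioesterase gene Acot1 and the tetraspanin gene Cd53, all at 0.995 and lower in RT101. Plau varied by only 0.44 over all arrays, and its closest genes reached 0.706 at most. With 4 groups, a gene with similarly spaced group means, such as 1 group standing apart, can reach a high r. These values only describe the likeness.

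The wider pathway was followed in 63 listed genes, of which 56 were measured. In bFGF-JB6 colonies 13 rose and 9 fell (39.3% of the 56 called, against 29.4% of all genes), and in RT101 colonies 19 rose and 3 fell (39.3%, against 32.4%). The median change was 0.10 and 0.09. The bFGF-JB6 count was 9 up and 8 down without bFGF-JB6 monolayer replicate 3, and 17 up and 9 down without bFGF-JB6 colonies replicate 3. Without RT101 monolayer replicate 1, the RT101 count was 13 up and 3 down. Counts by role follow, each to be read against the 29.4% and 32.4% of all genes called. The lists were chosen with earlier results of these data known, so these shares are a description and no test of enrichment. Values are from the brightest probe set, and other sets of a named gene are given where they were not called. No other set was called in the opposite direction.

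S100a10 and Plgrkt, which act in binding plasminogen to the cell surface, moved in opposite directions in the lines. In the list of plasminogen and its receptors, 3 of 4 measured genes fell in bFGF-JB6 colonies (75%), and 2 rose and none fell in RT101 colonies (50%). S100a10, whose protein pairs with annexin A2 and binds plasminogen, had mean signals of 11.34 and 10.51 in bFGF-JB6 monolayers and colonies and 11.30 and 12.22 in those of RT101. It fell by 0.84 (SE 0.10, limma adjusted p = 2.46e-05) and rose by 0.92 (SE 0.11, limma adjusted p = 2.03e-05), and the changes differed by 1.76 (limma adjusted p = 1.11e-06). Plgrkt, a membrane receptor of plasminogen, fell by 0.53 (limma adjusted p = 0.00337) and rose by 0.61 (limma adjusted p = 0.00234), with a difference of 1.15 (limma adjusted p = 0.000245). Anxa2, annexin A2, fell by 0.61 in bFGF-JB6 colonies (limma adjusted p = 5.03e-05) and was at -0.01 in RT101 colonies (limma adjusted p = 0.972). The 2 dimmer Anxa2 sets were at -0.20 and -0.17 in bFGF-JB6 colonies and not called. The Anxa2 changes differed by 0.60 (limma adjusted p = 0.00156). In both lines S100a10 and Plgrkt moved opposite to F3, while plasminogen itself (Plg) had group means of 3.71 to 3.99, near the bottom of the scale, and was called in neither colony comparison (limma adjusted p = 0.954 and 0.18).

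Of 6 genes whose proteases can activate plasminogen or urokinase, 1 rose in bFGF-JB6 (16.7%) and 2 in RT101 colonies (33.3%), and none fell. Ctsb, cathepsin B, rose by 0.62 and 0.80 (limma adjusted p = 2.84e-05 and 4.95e-06), and Ctsl, cathepsin L, rose by 0.42 in RT101 (limma adjusted p = 0.00109). Of 8 measured inhibitor genes other than Serpinb2, 1 rose and 1 fell in bFGF-JB6 colonies and 2 rose in RT101 colonies, 25% in each, below the share of all genes. Serpinb6a, an intracellular serpin, fell by 0.35 (limma adjusted p = 0.0046) and rose by 0.41 (limma adjusted p = 0.00308; 0.061 without RT101 monolayer replicate 1). Serpinb8, a relative of Serpinb2, rose by 0.30 and 0.35 (limma adjusted p = 0.0323 and 0.0236). The bFGF-JB6 call of Serpinb8 was lost without replicate 1 or 2 of either growth state (highest adjusted p = 0.125), and its RT101 call without monolayer replicate 2 or colonies replicate 1 or 2 (highest 0.18).

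Of 8 measured genes for the clearance of protease and inhibitor complexes, receptors and the chaperone Lrpap1, 2 rose in bFGF-JB6 (25%, below the 29.4% of all genes) and 4 in RT101 colonies (50%, against 32.4%), with none down. Lrp1, the endocytic receptor that takes up urokinase bound to its inhibitor, rose by 0.70 in bFGF-JB6 (limma adjusted p = 0.00216) and by 0.51 in RT101 (limma adjusted p = 0.0255), where the call was lost without any 1 of the 5 RT101 arrays (highest adjusted p = 0.176). Lrpap1, which accompanies this receptor through its folding, rose by 0.31 and 0.90 (limma adjusted p = 0.00642 and 1.72e-06). Mrc2, a collagen receptor that associates with the urokinase receptor, rose by 1.21 in RT101 colonies (limma adjusted p = 6.77e-05), with its other probe set at 0.69 and not called (adjusted p = 0.266). Igf2r, which binds the urokinase receptor among other ligands, rose by 0.35 there (limma adjusted p = 0.023), a call lost without either monolayer or colonies replicate 1 or 3 (highest 0.10), and its other set was at 0.27 and not called.

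Of 9 measured genes in the list of vitronectin and partners of the urokinase receptor, 3 rose and 1 fell in bFGF-JB6 (44.4%) and 2 rose and 1 fell in RT101 colonies (33.3%). All of these were among its 6 integrins, while Vtn, Egfr and Fpr2 were called in neither. Itgb5, part of a vitronectin receptor, rose by 1.29 and 1.55 (limma adjusted p = 5.07e-07 and 1.82e-07). Itga3, part of a laminin receptor, fell by 1.33 and 0.82 (limma adjusted p = 5.12e-06 and 0.00069). The 2 other Itga3 sets fell in bFGF-JB6 too (by 0.93 and 0.94), but in RT101 they were at -0.43 and -0.55 and not called (adjusted p = 0.0728 and 0.0541). A difference between the lines was called for neither Itgb5 nor Itga3 (limma adjusted p = 0.24 and 0.0714). Itgav and Itgb3 rose by 0.35 and 0.25 in bFGF-JB6 colonies (limma adjusted p = 0.0185 and 0.0396), and Itga5 by 0.83 in RT101 colonies (limma adjusted p = 0.0214). Other sets were not called, at 0.39 and 0.06 for Itgav and 0.77 for Itga5. The Itgav call was lost without monolayer replicate 2 or 3 or colonies replicate 3 (highest 0.0733), the Itga5 call without RT101 monolayer or colonies replicate 1 (highest 0.181), and the Itgb3 call without any of 8 single arrays, which were all but both RT101 monolayers and bFGF-JB6 colonies replicate 3 (highest 0.135).

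Among 12 measured genes of the tissue factor pathway and thrombin receptors, 2 rose and 1 fell in each colony comparison, 25% in each, below the 29.4% and 32.4% of all genes. Thbd, thrombomodulin, which turns thrombin to the anticoagulant side, moved the same way as F3: it rose by 0.67 in bFGF-JB6 colonies (limma adjusted p = 1.61e-05) and fell by 0.64 in RT101 colonies (limma adjusted p = 5.27e-05), a difference of -1.31 (limma adjusted p = 1.50e-06). F2r, a thrombin receptor, rose by 0.82 in bFGF-JB6 colonies (limma adjusted p = 0.000297), and Pros1, protein S, rose by 1.05 in RT101 colonies (limma adjusted p = 2.39e-06). Factor VII (F7), the ligand of tissue factor, had group means of 3.47 to 3.80, and Tfpi, the inhibitor of the tissue factor complex, was at -0.02 and 0.22 (limma adjusted p = 0.937 and 0.178). F5, factor V, fell by 0.47 and rose by 0.33 (limma adjusted p = 0.0022 and 0.0324) at group means of 2.45 to 3.28, and its RT101 call was lost without either monolayer or colonies replicate 1 or 2 (highest 0.22), and its other set was at 0.02 and 0.03 and not called.

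Of 9 genes for growth factors and proteases that plasmin can activate, 4 rose and 3 fell in bFGF-JB6 (77.8%) and 5 rose and 1 fell in RT101 colonies (66.7%). Mmp14, a membrane metalloprotease, rose by 1.63 and 0.78 (limma adjusted p = 2.08e-08 and 4.02e-05). Its other set rose in bFGF-JB6 (1.94) and was at 0.69 in RT101, not called (adjusted p = 0.0502). Mmp13, a collagenase, rose by 3.23 in bFGF-JB6 (limma adjusted p = 3.80e-10). In RT101 the gelatinase gene Mmp9 rose most (2.68, limma adjusted p = 8.58e-09), followed by the stromelysin gene Mmp3 (1.66, limma adjusted p = 2.57e-08). Mmp3 rose there from a low level, with means of 4.72 and 6.38 in RT101 monolayers and colonies. In those of bFGF-JB6 its means were 11.09 and 10.84. Between colonies, 7 of the 9 genes were lower and 2 higher in RT101 (100%, against 43.3% of all genes). Tgfb1 rose by 0.65 and 1.02 (limma adjusted p = 0.0218 and 0.00222), the first lost without replicate 2 or 3 of the monolayer or 1 or 2 of the colonies (highest 0.106). Mmp13 also rose in RT101, by 0.61 (limma adjusted p = 0.0026; 0.0651 without RT101 monolayer replicate 1). Bdnf, a neurotrophin gene, fell by 0.62 in bFGF-JB6 colonies (limma adjusted p = 0.000358), with its other set at 0.03 and not called. The RT101 rise of Mmp13 and the calls that follow were picked out after their values were seen. Tgfb2 rose by 0.56 in bFGF-JB6 (limma adjusted p = 0.016), a call lost without bFGF-JB6 monolayer replicate 3 (adjusted p = 0.0789). The others that fell were Mmp9 and Mmp3 in bFGF-JB6 (by 0.46 and 0.25, limma adjusted p = 0.0136 and 0.0425) and the angiogenic factor gene Vegfa in RT101 (by 0.60, limma adjusted p = 0.0024). The fall of Mmp9 was lost without bFGF-JB6 monolayer replicate 1 (adjusted p = 0.0505) and that of Mmp3 without any of 7 single arrays (highest 0.11). The other sets of Mmp9 in bFGF-JB6 and Vegfa in RT101 were at -0.26 and -0.17 and not called.

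**Figure D3:**
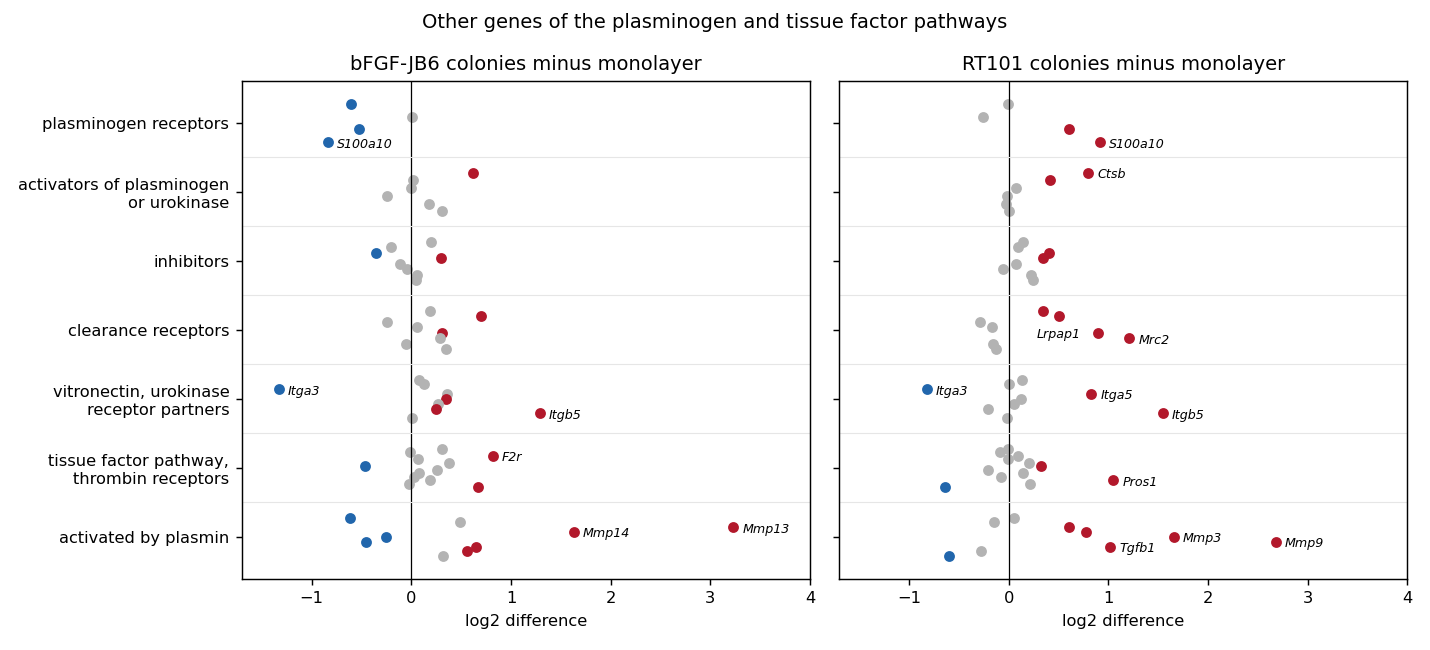
Log2 difference between colonies and monolayer (horizontal axis) for 56 other genes of the pathway, grouped by role, in bFGF-JB6 (left) and RT101 (right); red points rose, blue points fell and grey points were not called, with names at changes of 0.8 or more. S100a10 lies at -0.84 on the left and 0.92 on the right, and Mmp13 on the left and Mmp9 on the right lie farthest out.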

How the data were processed

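The authors deposited log2 signals, 1 value per probe set and array, that came from RMA according to the submitters' processing notes; its version and settings are not given in the sources used here. Values were used as deposited. Of 22690 probe sets 64 were controls and 20380 named a single gene, and the brightest such set stood for each of 12393 genes. Other sets of a gene were read from a fit over all 22626 sets that were not controls. Groups came from the titles. Limma 3.58.1 in R 4.3.3 was fitted to all 11 arrays with group as the only term (7 residual and 6.12 prior degrees of freedom), and a gene was called where its Benjamini-Hochberg adjusted p, over all genes, was below 0.05. Intervals are 95% and use the moderated error. The procedure was tested on simulated data. Genes named by rule were the members, up to 4 called genes per role list and colony comparison, and the 3 genes most correlated with each member. Named besides these were cell type markers, uncalled pathway genes such as Plg, F7 and Tfpi, and the remaining calls among genes that plasmin can activate. Members and lists were chosen with earlier results of these data known. Deviations of arrays sharing a title number correlated above 0.1 in 5 of 15 pairs (8 of 15 by the description letters). All 3 pairs of bFGF-JB6 with RT101 colonies did (0.32, 0.111 and 0.225), which is seen in the data and not given by the labels. The values reported use no pairing in any comparison. A block by these numbers, tried as an alternative, changed no member's call between colonies. Promoter windows came from RefSeq. Alternatives were other normalisations, filters, probe set rules, variance models, blocks and leaving out arrays. Precision is limited by how many arrays each group has. Plots used matplotlib 3.10.9 in Python 3.11.15.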

Additional observations from a re-analysis of the deposited data

Results flagged for a closer look

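The colony change of 3 members differed between the lines by a direct test of the difference (RT101 change minus bFGF-JB6 change, limma). The difference was -3.25 for F3, whose signal went up in bFGF-JB6 colonies and down in RT101 colonies. It was -1.71 for Plaur and -1.89 for Serpinb2, which fell in RT101 and were not called in bFGF-JB6. F3, Plaur and Serpinb2 stood higher in RT101 than in bFGF-JB6 monolayers, by 3.42, 1.53 and 1.88. Between colonies the lines differed by 0.17, -0.18 and -0.01, none called. The differences in colony change thus largely restate those between the monolayers, and the RT101 monolayers rest on 2 arrays. Line and bFGF treatment cannot be told apart in these differences.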

How the results depend on the processing

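A 2-fold minimum was not among the recomputed member changes, and the F3 fall in RT101 colonies, at 1.36-fold, does not reach it. Of 535 recomputed member changes 532 kept their side of the threshold. The exceptions were F3 in RT101 colonies without RT101 monolayer replicate 2 (adjusted p = 0.0645), and Plaur between colonies without bFGF-JB6 colonies replicate 3 (-0.27, adjusted p = 0.042) or without both arrays of raised Gapdh 3' signal (-0.27, adjusted p = 0.0331), where 2 members were then called. With single arrays left out, members called numbered 1 in bFGF-JB6 colonies, 2 to 3 in RT101 colonies, 3 for the difference, 4 between monolayers and 1 to 2 between colonies. Genes called, in the same order, ran from 2995 to 3833, 3050 to 4548, 2666 to 3664, 4607 to 5898 and 4770 to 5558. They were 3642, 4013, 3430, 5504 and 5372 in the fit reported, 432, 717, 968, 1518 and 1247 with a 2-fold minimum, and 5986, 6451, 5260, 9093 and 8965 when all 22626 probe sets were tested, where the unit is a probe set. A replicate block from the title numbers gave 1, 3, 3, 4 and 1 members and 3550, 3887, 3290, 5391 and 5291 genes called in the same order, and a block from the description letters gave the same members' counts; the correlation check of these numbers ran from -0.336 to 0.32. Plau and Serpinb2 fell below a filter at the median level and have no value there. The difference between lines could not be refitted on fewer groups, since it uses all 4. Where an array of the RT101 monolayer was left out, the remaining one was assumed to vary like the other groups. Signals near the bottom limit Plau in all groups and Serpinb2 in all but RT101 monolayers.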
